A study of Mus musculus with 11 samples.

Results

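Cells hold on to their surroundings through receptors for the extracellular matrix, and 34 genes of this kind were examined here in stromal cells of the marrow after doxorubicin. They are 18 integrin α genes and 8 integrin β genes, the discoidin domain receptors Ddr1 and Ddr2, the syndecans Sdc1 to Sdc4, the hyaluronan receptor Cd44 and the dystroglycan gene Dag1. They were taken by symbol from the 24718 genes of the count table, and all 34 had a row. A low-count filter kept 17838 genes for testing, 32 of them matrix receptors; the 2 that did not pass were Itgad and Itgb6.

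RNA was sequenced from female Lepr-Cre;LSL-tdTomato+/- mice, in which Cre expressed from the leptin receptor gene switches on the red reporter tdTomato, and mesenchymal stem and progenitor cells were sorted from enzyme-digested marrow by that colour. Every group carried this genotype. The reporter marks cells that express Lepr or descend from cells that did, and the libraries also held transcripts typical of other marrow cells. The PBS mice (n = 4) had received 4 intravenous injections of phosphate-buffered saline, the DOX1X mice (n = 3, young adults) 1 intravenous dose of doxorubicin at 10 mg/kg, and the DOX4X mice (n = 4, aged 8 to 10 weeks) 4 intravenous doses of 5 mg/kg with 1 week between doses. Cells were collected 8 weeks after treatment. The age of the PBS mice at injection is not given in the sources used here, and the 2 doxorubicin groups differed in total dose as well as in the number of doses.

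Integrins are pairs of an α and a β chain that span the membrane, bind matrix proteins outside the cell and are tied to actin inside it through talin, kindlin and the focal adhesion proteins. The β1 chain pairs with most of the collagen, laminin and fibronectin binding α chains, αv pairs with several β chains to bind proteins that carry the peptide motif RGD, and the β2 and β7 chains are used by leukocytes. Discoidin domain receptors are tyrosine kinases switched on by collagen, syndecans are membrane proteoglycans whose heparan sulfate chains bind matrix proteins and growth factors, and dystroglycan binds laminin. In marrow, stromal cells both make the matrix and are anchored to it, while platelets and leukocytes carry integrin pairs of their own.

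The 4 PBS libraries held 29540422 to 42784036 counts, the 3 DOX1X libraries 33496356 to 42002065 and the 4 DOX4X libraries 31129352 to 36888310. Summed marker levels for marrow stromal identity (15 genes, among them Lepr and Cxcl12) ran from 74464 to 85488 CPM, the counts scaled to a common library size, in PBS, 68971 to 85345 in DOX1X and 67970 to 81748 in DOX4X, so the labelled cell type was present in every library. Libraries also differed in markers of other marrow cells, whose values stand beside the results they touch. PBS 4 has a title that names doxorubicin and a treatment label that names PBS; it was kept as PBS. Column names place PBS 1 to 4 and DOX1X 1 and 2 on flow cell 1, and DOX1X 3 and all DOX4X libraries on flow cell 2. The DOX4X and PBS groups thus never shared a flow cell, and only DOX1X links the 2 flow cells.

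In the cells of PBS mice the β1 chain was the most abundant of the 34 receptors per exon length. Itgb1, the shared partner of many α chains, stood at 351 CPM per kb of exon ± 27.4 (SD, n = 4), followed by the syndecan genes Sdc2 at 196 ± 22.0 and Sdc1 at 127 ± 8.74. Itgb5, the β5 chain that pairs with αv, stood at 122 CPM per kb ± 25.6. Dag1 stood at 104 ± 17.6, Sdc3 at 86.9 ± 11.03 and Sdc4 at 73.1 ± 8.23 on the same scale. The ranges of the 4 PBS libraries separated Itgb1 from Sdc2, Sdc2 from Sdc1, and Sdc4 from the next gene, Itgav; the ranges of neighbours from Sdc1 to Sdc4 overlapped.

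A middle tier followed. Itgav, the αv chain, stood at 36.1 CPM per kb ± 4.80 in PBS (SD, n = 4), Ddr2, the discoidin domain receptor for fibrillar collagen, at 35.2 ± 3.60, and the collagen receptor chains Itga11 and Itga1 at 32.4 ± 6.95 and 22.1 ± 3.05. Itgb3, the β3 chain shared by stromal cells, osteoclasts and platelets, had 20.9 ± 10.7 and Ddr1 16.6 ± 1.89. Neighbours in this tier overlapped, and the next gap between ranges lay below Ddr1. Itga9, Itga8, Itga5 and Cd44 stood between 11.02 and 12.0 CPM per kb.

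The low tier held chains best known from blood cells and epithelia, among others. Itga2b, the αIIb chain of platelets, had 8.39 CPM per kb ± 7.53 in PBS, an SD nearly as large as the mean. The laminin receptor chains Itga6, Itga7 and Itga3 had 5.31, 3.44 and 2.88 CPM per kb. The leukocyte chains Itgb2, Itgb7 and Itgal stood between 1.42 and 1.93, and Itga4, Itga2 and Itga10 between 0.475 and 1.02. Itgb4, Itgb8, Itgam, Itgax, Itgae, Itgad and Itgb6 stood at or under 0.182 CPM per kb, with at most 117 counts in any library. Below Ddr1, every neighbouring pair in the order overlapped.

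**Figure D1:**
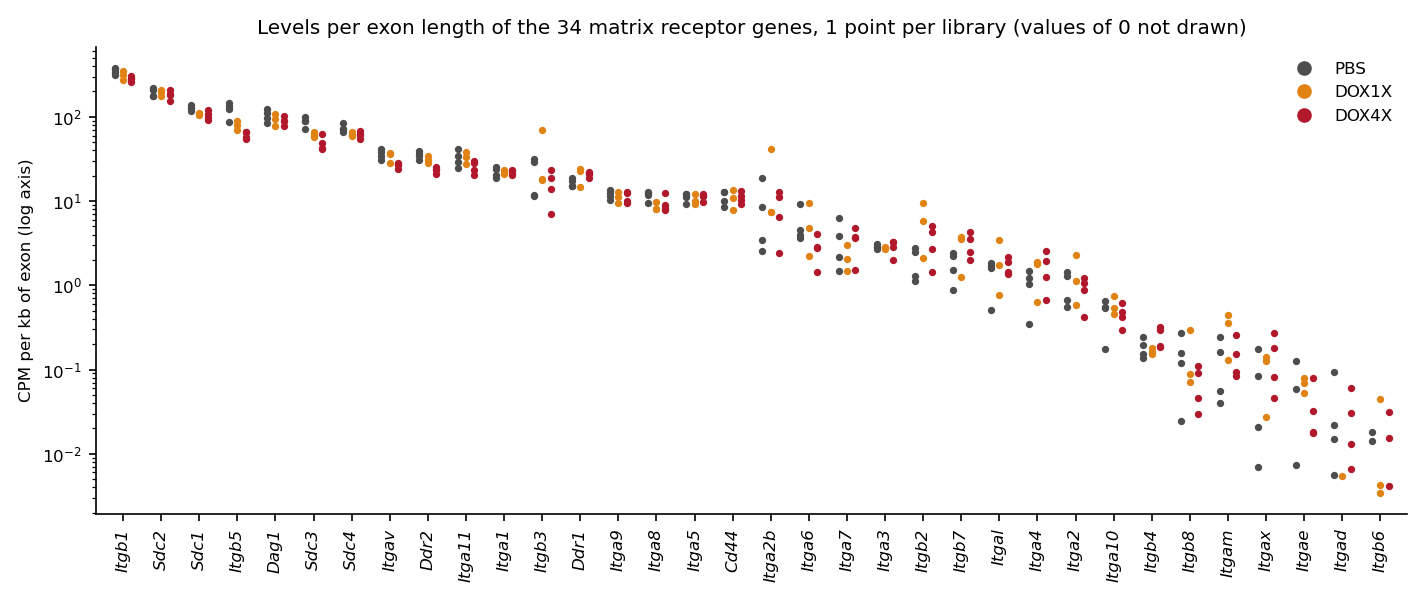
Levels of the 34 matrix receptor genes on a log axis, in CPM per kb of exon, ordered by the PBS mean, with 1 point per library coloured by group. Itgb1 is highest at a PBS mean of 351, and the points of Itgb3 and Itga2b spread widely within each group.

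After 4 doses of doxorubicin, 3 matrix receptor genes were lower than in PBS: Itgb5, Sdc3 and Ddr2. Each belongs to a different receptor class, and each was among the 9 most abundant of the 34 in PBS. None was called higher. The 3 are 3 of 32 tested (edgeR's quasi-likelihood test, Benjamini-Hochberg adjusted p under 0.05 over all 17838 genes), while 26 of all genes tested, or 0.146%, were called lower. Of the 32, 22 had a fold change below 0, or 68.8%, against 47.8% of all genes, and their median log2 fold change was -0.10 against 0.01. This lean depended on the fit. With a term for the flow cell, some of the 22 were above 0, among them Itga11 (0.05), Sdc2 (0.11), Dag1 (0.18) and Itgb3 (0.88). Others of the 22, such as Itgav (-0.06) and Itgb1 (-0.02), stayed below 0. In these bulk libraries, fewer cells of a type and less RNA per cell cannot be told apart.

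Itgb5 had the largest change of the 3. In PBS its levels were 474, 438, 518 and 306 CPM, in DOX1X 246, 321 and 281 CPM, and in DOX4X 206, 232, 193 and 235 CPM. All 4 DOX4X libraries lay below all PBS and all DOX1X libraries, whereas DOX1X 2 lay above PBS 4, the lowest control. Itgb5 fell by 1.00 log2 units in DOX4X against PBS (SE 0.15, adjusted p = 0.043 by edgeR), a change of -50.1%.

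Sdc3, the syndecan with the largest core protein, best known from nervous tissue and muscle, followed the same order of group means. Its levels were 529, 591, 530.4 and 431 CPM in PBS, 349.6, 367 and 392 CPM in DOX1X, and 248, 295, 259 and 371 CPM in DOX4X. Both doxorubicin groups lay wholly below PBS, and DOX4X 4 fell within the DOX1X range. Sdc3 fell by 0.83 log2 units in DOX4X against PBS (SE 0.13, adjusted p = 0.048 by edgeR), a change of -43.7%.

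Ddr2 had levels of 365, 286, 336 and 317 CPM in PBS, 322, 264 and 282 CPM in DOX1X, and 220.4, 194, 236 and 215 CPM in DOX4X. Here DOX1X overlapped PBS, and DOX4X lay below both. Ddr2 fell by 0.59 log2 units in DOX4X against PBS (SE 0.10, adjusted p = 0.048 by edgeR), a change of -33.7%.

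The 3 calls were close to the threshold and did not hold in every fit. Leaving out PBS 1, 2 or 3, DOX1X 1 or 2, or DOX4X 1, 2 or 3 left 0 of the 32 called. Of all genes, 0 to 3 were called in those fits. There 7 to 10 of the 32 had an unadjusted p under 0.05, and the share of all genes under it was not worked out. Without DOX4X 4, 1 receptor (Sdc3) was called beside 7 of all genes. Without PBS 4 or DOX1X 3, 3 were called, beside 80 and 47 of all genes. With a term for the flow cell, the fold changes of Itgb5, Sdc3 and Ddr2 were -0.99 (SE 0.30, adjusted p = 0.347), -0.96 (SE 0.26, adjusted p = 0.317) and -0.54 (SE 0.20, adjusted p = 0.424), so the sizes were close to those without the term and none was called. That term rests on DOX1X 3 set against DOX1X 1 and 2, so closeness of the sizes cannot tell flow cell and treatment apart. Without PBS 4 the 3 fold changes were -1.14, -0.91 and -0.61.

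The promoters of Itgb5 and Sdc3 are shown because these genes had the largest called changes among the 34. Of the 34 genes, 25 matched an entry of the RefSeq promoter table by symbol (build GRCm38.p6, another build than that of the counts). Each sequence is the 250 bases upstream of the RefSeq gene start, and capitals mark the GC box core GGGCGG or its complement CCGCCC. The Itgb5 window is chr16:33829415-33829664 on the + strand and the Sdc3 window chr4:130792287-130792536 on the + strand.
Itgb5: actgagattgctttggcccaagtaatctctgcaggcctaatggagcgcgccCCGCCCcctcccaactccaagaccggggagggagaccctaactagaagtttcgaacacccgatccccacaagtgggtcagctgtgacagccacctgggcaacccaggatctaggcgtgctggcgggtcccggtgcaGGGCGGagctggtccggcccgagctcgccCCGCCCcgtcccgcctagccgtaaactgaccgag
Sdc3: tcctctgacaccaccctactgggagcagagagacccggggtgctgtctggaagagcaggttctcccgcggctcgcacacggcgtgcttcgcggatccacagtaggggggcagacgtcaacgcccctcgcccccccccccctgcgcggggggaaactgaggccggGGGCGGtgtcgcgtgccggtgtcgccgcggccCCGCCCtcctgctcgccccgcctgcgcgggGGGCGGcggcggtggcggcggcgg
The GGGCGG core stood 3 times in each window, starting 199, 63 and 34 bases before the gene start in Itgb5 and 86, 54 and 24 bases before it in Sdc3. Over all 32851 promoters of that length, 32.7% held it on either strand, as did 11 of the 25 receptor promoters. The other motifs searched on both strands were TGTGGT (in 14.0% of all promoters), TGANTCA (6.75%), CATTCC (12.6%) and TATAAA (12.4%). None of these contains GGGCGG or its complement, and neither window shown held any of them. The window of Ddr2, the third called gene, held 0 GGGCGG cores and 1 TATAAA, starting 185 bases before the gene start. Its sequence is not shown because that start lies inside 5 of 6 GENCODE transcripts of the gene.

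**Figure D2:**
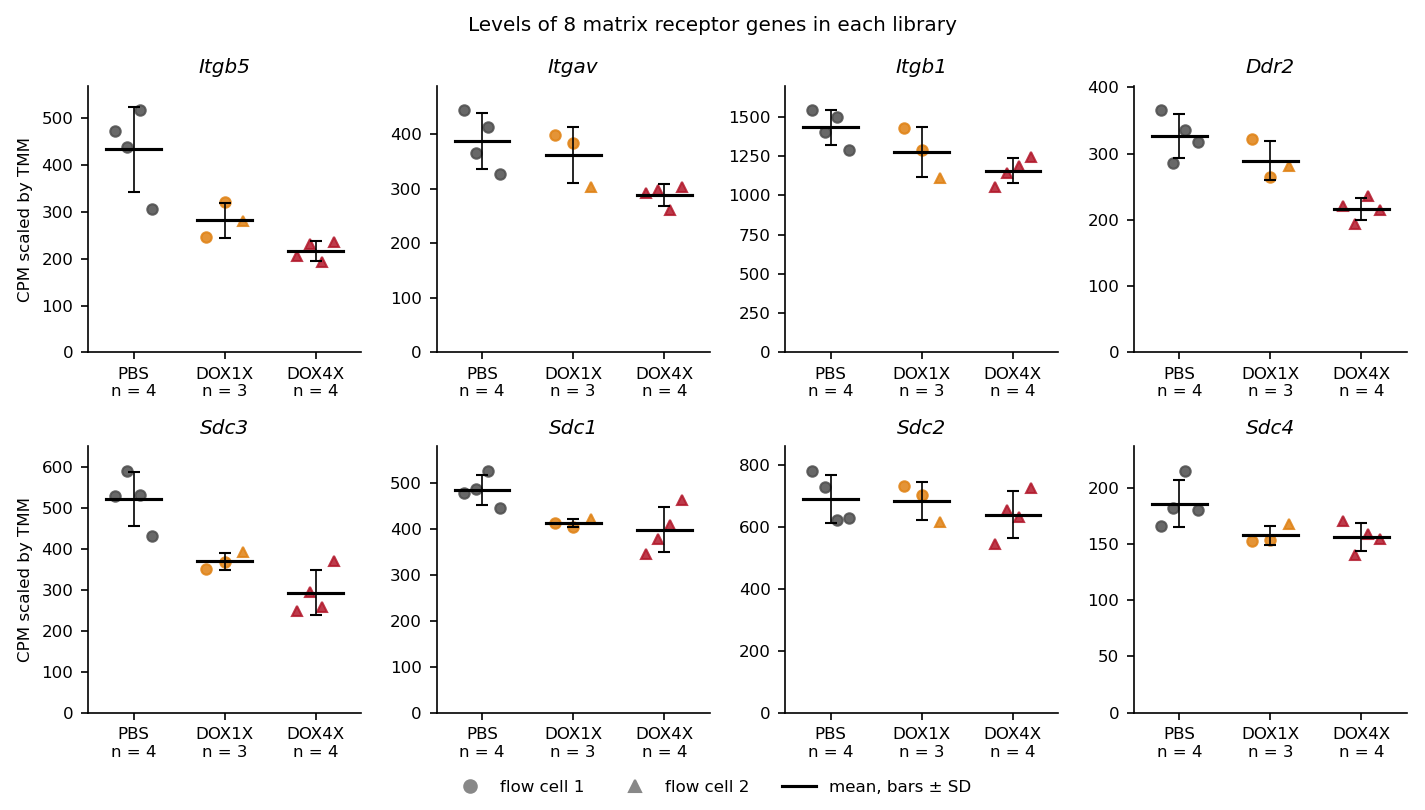
Levels in CPM scaled by TMM of Itgb5, Itgav, Itgb1, Ddr2 and the 4 syndecan genes, with 1 point per library, circles for flow cell 1 and triangles for flow cell 2; lines are group means and bars the SD. All DOX4X points of Itgb5, Sdc3 and Ddr2 lie below all PBS points, and Sdc2 overlaps between all groups.

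The αv and β1 chains, which pair with β5 and with many α chains respectively, were lower in DOX4X by less and did not pass the test. Itgav had 445, 365, 414 and 328 CPM in PBS, 399, 385 and 304 in DOX1X, and 292, 299, 260.4 and 304 in DOX4X. Its log2 fold change in DOX4X against PBS was -0.43 (SE 0.11, adjusted p = 0.153 by edgeR). All DOX4X libraries lay below all PBS libraries, and DOX1X 3, which shared their flow cell, had the level of the highest of them.

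Itgb1 had 1542, 1402, 1500.4 and 1291 CPM in PBS, 1431, 1288 and 1109 in DOX1X, and 1055, 1141, 1189 and 1245 in DOX4X. Again the 2 outer groups did not overlap, and DOX1X 3 was the lowest of its group. The log2 fold change in DOX4X against PBS was -0.31 (SE 0.10, adjusted p = 0.207 by edgeR). With a term for the flow cell, it was -0.06 (SE 0.20) for Itgav and -0.02 (SE 0.17) for Itgb1, both within 1 SE of 0. DESeq2 called both of them beside Itgb5, Sdc3 and Ddr2, 5 receptors in all, but it also called 599 of the 17838 genes in this comparison, or 3.36%, where edgeR called 26.

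Counts within a library can be set against each other without any scaling. The ratio of Itgb5 to Itgav counts was 1.11 ± 0.142 in PBS (SD, n = 4, range 0.934 to 1.25), 0.791 ± 0.158 in DOX1X (n = 3, range 0.615 to 0.923) and 0.750 ± 0.0344 in DOX4X (n = 4, range 0.705 to 0.779). Every doxorubicin library lay below every PBS library in this ratio. The ratio of Itgb5 to Itgb1 was 0.301 ± 0.0453 in PBS, 0.225 ± 0.0458 in DOX1X and 0.187 ± 0.0178 in DOX4X; DOX4X lay below PBS and DOX1X overlapped it. The ratio of Ddr2 to Itgb1 was 0.228 ± 0.0182, 0.228 ± 0.0246 and 0.188 ± 0.0191 in the 3 groups, and DOX4X overlapped PBS. These ratios are a description and were not tested.

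**Figure D3:**
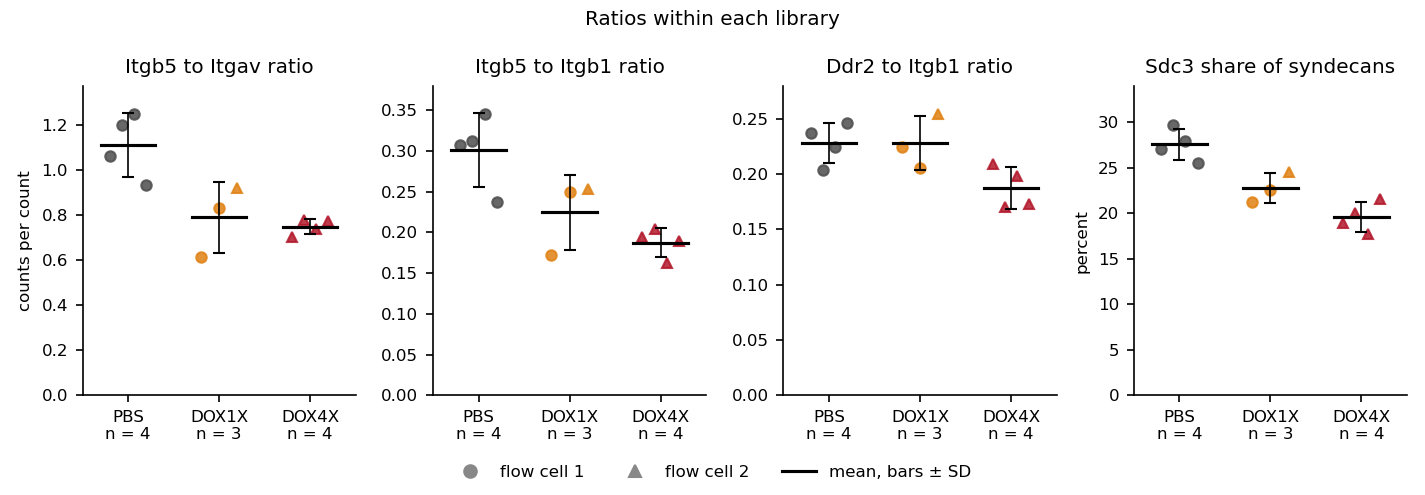
Count ratios of Itgb5 to Itgav, Itgb5 to Itgb1 and Ddr2 to Itgb1, and the percentage of Sdc3 in the summed counts of the 4 syndecan genes, with 1 point per library, means as lines and SD as bars. The Itgb5 to Itgav ratio and the Sdc3 share are lower in every doxorubicin library than in any PBS library.

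Among the remaining αv partners no call was made. Itgb3 had 186, 69.5, 170.2 and 67.9 CPM in PBS, 108, 407 and 105 in DOX1X, and 137, 82.2, 41.2 and 112 in DOX4X. The groups overlapped throughout, and DOX1X 2 stood far above the rest. Its log2 fold change in DOX4X against PBS was -0.41 (SE 0.51, adjusted p = 0.789 by edgeR); fitted beside a flow cell term it was 0.88. Itgb8, the β8 chain that pairs with αv to bind latent TGF-β, had a mean of 1.57 CPM in PBS and 0.770 in DOX4X, with a log2 fold change of -1.04 (SE 0.67, adjusted p = 0.531); fitted beside a flow cell term it was 0.37 (SE 1.31), and without PBS 1 -0.53. Itgb6, the epithelial β6 chain, reached at most 12 counts in a library and was not tested.

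The syndecans differed among themselves. Sdc3 alone passed the test, and the share of Sdc3 in the summed counts of the 4 genes was 27.6% ± 1.74 in PBS (SD, n = 4), 22.8% ± 1.66 in DOX1X (n = 3) and 19.6% ± 1.65 in DOX4X (n = 4). No doxorubicin library reached the lowest PBS share of 25.6%. The share of Sdc2 was 36.7% ± 2.93, 42.1% ± 3.08 and 43.0% ± 1.31 in the 3 groups, while Sdc1 stood between 25.5% and 26.8% and Sdc4 between 9.74% and 10.6% as group means.

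Sdc1, the syndecan of epithelia and plasma cells, had 479, 487, 528 and 447 CPM in PBS, 413, 406 and 422 in DOX1X, and 346, 379, 408 and 463 in DOX4X. DOX1X lay below PBS and DOX4X overlapped it through DOX4X 4. The log2 fold change in DOX4X against PBS was -0.28 (SE 0.09, adjusted p = 0.222 by edgeR). Sdc4, which gathers at focal adhesions, had 166, 183, 216 and 181 CPM in PBS, 153, 153 and 168 in DOX1X, and 171, 141, 159 and 154 in DOX4X, with overlap between all groups and a log2 fold change of -0.25 (SE 0.09, adjusted p = 0.256).

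Sdc2, the most abundant syndecan here, had 782, 728, 624 and 629 CPM in PBS, 732, 702 and 616 in DOX1X, and 544, 655, 632 and 727 in DOX4X. The groups overlapped. Its log2 fold change in DOX4X against PBS was -0.11 with a 95% interval from -0.35 to 0.13, which does not reach the -0.83 of Sdc3. That interval is from a fit without a flow cell term, so it cannot bound the effect of treatment alone. Fitted beside that term, the value of Sdc2 was 0.11.

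Ddr1, the collagen receptor kinase best known from epithelia, was higher in DOX4X in value but did not pass the test. It had 90.01, 83.1, 71.6 and 71.9 CPM in PBS, 109, 115 and 70.1 in DOX1X, and 90.03, 103, 105 and 99.5 in DOX4X. The DOX4X and PBS ranges met within 0.1 CPM without overlapping, and DOX1X 3 was the lowest of all libraries. The log2 fold change was 0.33 (SE 0.14, adjusted p = 0.333 by edgeR); fitted beside a flow cell term it was 1.00 (SE 0.18, adjusted p = 0.119). Without overlap between DOX4X and PBS, 5 of the 32 receptors were lower (Itgb5, Sdc3, Ddr2, Itgav and Itgb1) and 1 was higher (Ddr1), where 4.68% of all genes were lower and 3.17% higher. At an unadjusted p under 0.05, 8 were lower and 1 higher, against 7.85% and 6% of all genes.

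Cd44 and Dag1, receptors for hyaluronan and laminin, did not differ beyond their spread in the fit without a flow cell term. Cd44 had 87.4, 86.8, 67.5 and 56.9 CPM in PBS, 74.1, 92.6 and 53.8 in DOX1X, and 89.5, 78.4, 62.4 and 69.2 in DOX4X. Its log2 fold change in DOX4X against PBS was 0.00 with a 95% interval from -0.40 to 0.40. Fitted beside a flow cell term it was 0.64, outside that interval, and 0 of 23 alternative fits called Cd44. Dag1, the laminin receptor that links the matrix to dystrophin, had 796, 699.5, 612 and 537 CPM in PBS, 605, 687 and 491 in DOX1X, and 563, 575, 490.4 and 643 in DOX4X. All 3 groups overlapped for both genes, and the log2 fold change of Dag1 was -0.22 (SE 0.14, adjusted p = 0.516 by edgeR).

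Of the 18 integrin α genes, 17 were tested and edgeR called 0 in any comparison. At an unadjusted p under 0.05, Itgav and Itga8 were lower in DOX4X against PBS, where 7.85% of all genes were. At that p, Itga8 was lower in DOX1X against PBS, beside 3.74% of all genes, and Itgav in DOX4X against DOX1X, beside 2.13%. DESeq2 called Itgav in DOX4X against PBS. The collagen receptor chain Itga1 was the steadiest of the abundant ones, at 412 CPM ± 56.7 in PBS, 413 ± 22.4 in DOX1X and 408 ± 25.0 in DOX4X (SD, n = 4, 3 and 4), with a 95% interval of the DOX4X log2 fold change from -0.23 to 0.20. Itga11, a collagen receptor chain of mesenchymal cells, had 166 ± 35.7, 169 ± 28.0 and 131 ± 22.0 CPM and a log2 fold change of -0.34 (SE 0.17, adjusted p = 0.397 by edgeR). Itga8, which binds nephronectin and other RGD proteins, had 86.4 ± 10.9, 63.7 ± 7.77 and 69.2 ± 15.2 CPM and a log2 fold change of -0.32 (SE 0.15, adjusted p = 0.361). The fibronectin receptor chain Itga5 stood at 55.3, 51.7 and 55.4 CPM in the 3 groups, with a 95% interval from -0.24 to 0.25.

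Other α chains spread widely within groups or were low. Itga6, a laminin receptor chain, had 47.9 CPM ± 23.7 in PBS and 25.2 ± 9.87 in DOX4X, and its log2 fold change was -0.93 (SE 0.44, adjusted p = 0.381 by edgeR). Without PBS 3 it was -0.53 (SE 0.42). Itga7, the laminin receptor chain of muscle, ran from 11.8 to 50.8 CPM over the 11 libraries. The summed level of 10 mural cell markers, those of pericytes and vessel muscle, ran from 565 to 1800 CPM in PBS, 544 to 898 in DOX1X and 650.03 to 1561 in DOX4X. PBS 1 was the highest and DOX1X 1 the lowest library for both Itga7 and these markers, whose part in the level of Itga7 was not tested. Itga3 ran from 11.4 to 18.9 CPM. Itga9 stood at 92.1, 85.5 and 86.7 CPM as group means, with a log2 fold change of -0.09 (SE 0.13). Itgb4, the epithelial partner of α6, had group means of 1.28, 1.15 and 1.73 CPM and a log2 fold change of 0.42 in DOX4X against PBS (SE 0.27, adjusted p = 0.525). Itga10 shares 33.5% and Itgam 68.7% of its exon bases with another gene of the annotation, and since the kit does not mark strand, their counts are uncertain as those of single genes.

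**Figure D4:**
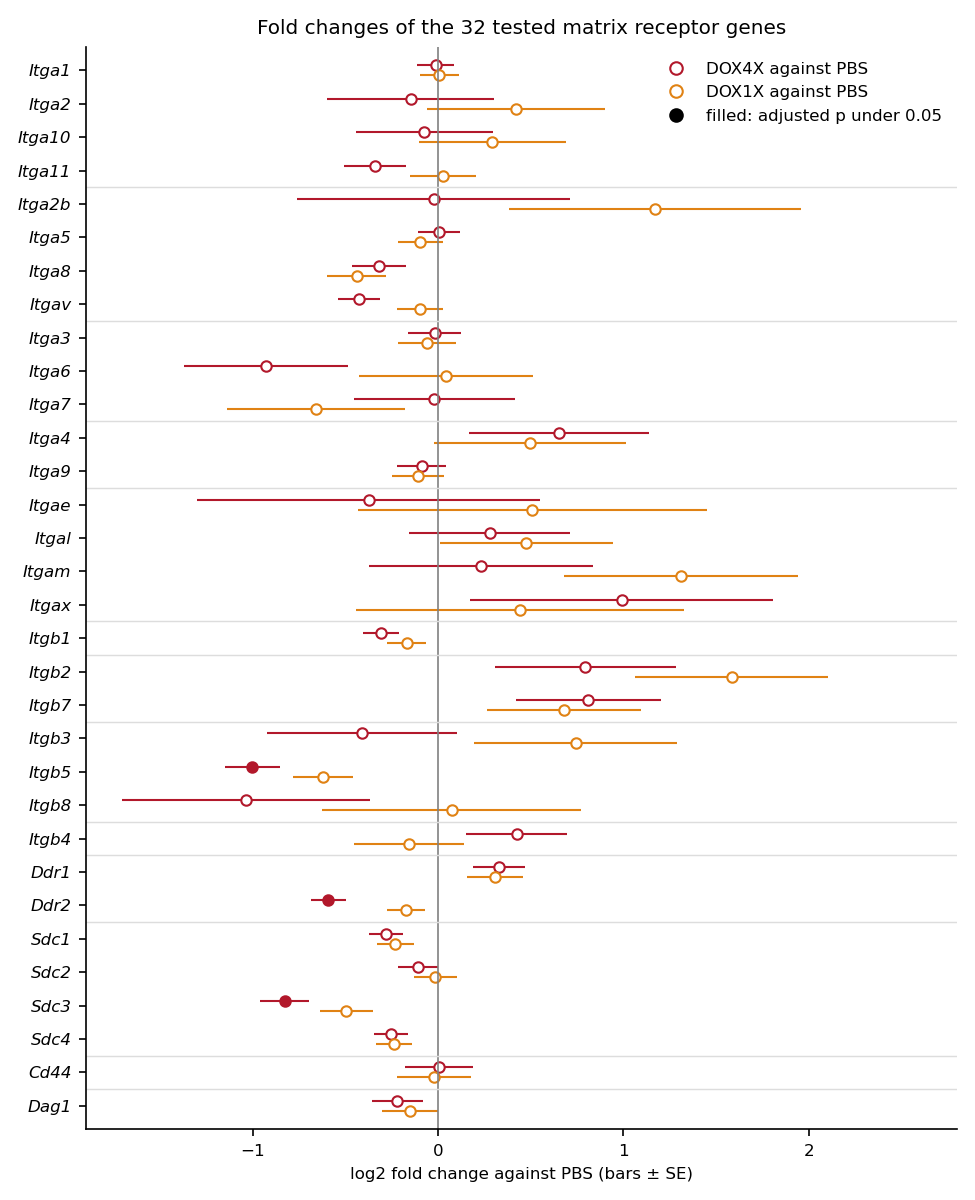
Log2 fold changes of the 32 tested receptor genes against PBS, ordered by receptor class, red for DOX4X and orange for DOX1X, with bars of ± SE; filled points passed an adjusted p of 0.05. The filled points are Itgb5, Ddr2 and Sdc3 in DOX4X, and the widest bars belong to low genes and to chains of blood cells.

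After 1 dose, 0 of the 32 receptors differed from PBS by edgeR's quasi-likelihood test, where 1 gene of 17838 was called, or 0.00561%. DESeq2 called 0 of the 32 and 0.23% of all genes. At an unadjusted p under 0.05, 5 were lower (Itgb5, Sdc3, Itga8, Sdc4 and Sdc1) and 1 higher (Itgb2), against 3.74% and 3.42% of all genes. The log2 fold change of Itgb5 was -0.62 (SE 0.16, adjusted p = 0.515), that of Sdc3 was -0.49 (SE 0.14, adjusted p = 0.58) and that of Ddr2 was -0.17 (SE 0.10, adjusted p = 0.742). Within flow cell 1, where 2 DOX1X libraries stood against 4 PBS libraries, these values were -0.62 (SE 0.21), -0.54 (SE 0.13) and -0.16 (SE 0.13). Of the 32, 16 had a fold change below 0, and the median was -0.004.

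Between the 2 doxorubicin groups, 0 of the 32 receptors differed by edgeR's quasi-likelihood test, with 1 gene of all called, or 0.00561%, and 0 by DESeq2, which called 0.157% of all genes. At an unadjusted p under 0.05, 4 were lower in DOX4X than in DOX1X (Ddr2, Itgav, Itgb5 and Sdc3) and 0 higher, against 2.13% and 2.23% of all genes. Ddr2 had the smallest p, with a log2 fold change of -0.42 (SE 0.10, adjusted p = 0.886). Within flow cell 2, where the 4 DOX4X libraries stood against DOX1X 3 alone, assumed to vary like the others, the values were -0.38 (SE 0.13) for Ddr2, -0.37 (SE 0.14) for Itgb5, -0.42 (SE 0.21) for Sdc3 and -0.07 (SE 0.13) for Itgav. The 3 comparisons share libraries, so they are not independent of each other.

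Several receptors are chains of leukocytes. Itgb2, the β2 chain of all leukocytes, had 7.69, 3.44, 8.51 and 3.97 CPM in PBS, 17.6, 29.2 and 6.41 in DOX1X, and 15.6, 13.0, 4.33 and 8.15 in DOX4X. Itgam, the αM chain of myeloid cells that pairs with β2, had 0.279, 1.23, 0.809 and 0.2001 CPM in PBS, 2.23, 1.79 and 0.657 in DOX1X, and 1.29, 0.761, 0.421 and 0.463 in DOX4X. Both overlapped between all groups, and both were highest in DOX1X 1 or 2. The log2 fold change of Itgb2 was 1.59 (SE 0.52, adjusted p = 0.596 by edgeR) in DOX1X and 0.79 (SE 0.49, adjusted p = 0.506) in DOX4X against PBS. Without DOX1X 2 the DOX1X value was 1.02, and with a term for the flow cell the DOX4X value was 2.66 (SE 0.87, adjusted p = 0.382).

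These chains were set against the markers of blood cells that a sort can hold. A blood-cell score, the centred mean log2 CPM of neutrophil, macrophage and monocyte, erythroid and B lineage markers, was -0.55 ± 0.37 in PBS (SD, n = 4), 0.38 ± 0.60 in DOX1X (n = 3) and 0.26 ± 0.53 in DOX4X (n = 4). With the score as a term beside the groups, 29 genes rose with it, or 0.163%, and 0 of the 32 receptors passed. The share of all genes with an unadjusted p under 0.05 on this score was not worked out. The 7 receptors under that value thus cannot be set against it. Among these, the slopes were 1.58 log2 units per unit of score for Itgam, 1.86 for Itgax, 1.23 for Itgb2, 1.21 for Itga4 and 0.99 for Itgb7, the chain that pairs with α4 in lymphocyte homing, and -1.08 for Itga7 and -0.31 for Itga8. The slope of Itgb7 passed when PBS 1 was left out. With the score as a term in the fit of all 11 libraries, the log2 fold changes of Itgb2 against PBS were 0.27 (SE 0.55) in DOX1X and -0.35 (SE 0.50) in DOX4X, so the DOX4X value changed sign. In the fit of all 11 libraries with this term, Itgb5, Sdc3 and Ddr2 had DOX4X log2 fold changes of -1.07, -0.76 and -0.56, close to those without the score, but none of the 3 was called (adjusted p = 0.0987, 0.191 and 0.194).

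Itga4 and Itgb7, which form the α4β7 receptor of lymphocytes, had group means of 14.3, 20.2 and 22.5 CPM and of 4.86, 7.81 and 8.54 CPM in PBS, DOX1X and DOX4X. Their log2 fold changes in DOX4X against PBS were 0.65 (SE 0.48, adjusted p = 0.597) and 0.81 (SE 0.39, adjusted p = 0.387). Neither direction held in every fit: with the blood-cell score as a term the values were -0.48 (SE 0.50) and -0.05 (SE 0.36), and with a term for the flow cell 2.19 (SE 0.93, adjusted p = 0.484) and 2.35 (SE 0.68, adjusted p = 0.333). Markers of lymphocytes were higher in value too. The T and natural killer cell markers summed to 13.8 to 22.0 CPM in PBS, 20.4 to 38.0 in DOX1X and 18.7 to 43.0 in DOX4X, and in DOX4X against PBS all 13 had a fold change above 0, with 0 called by edgeR and 4 at an unadjusted p under 0.05. The B lineage markers summed to 106 to 544, 300.3 to 818 and 181 to 609 CPM in the 3 groups. Again all 13 were above 0, with 0 called and 10 at an unadjusted p under 0.05. Of all genes, 6% were higher at that p in DOX4X against PBS. The part of T and natural killer cells in the levels of these receptors was not tested. The other leukocyte chains were low. Itgal, the αL chain of lymphocytes, stood at 9.33, 13.0 and 11.3 CPM as group means. Itgax, a chain of dendritic cells, was between 0.345 and 0.695 CPM and Itgae, a chain of tissue lymphocytes, between 0.168 and 0.308 CPM as group means. Itgad, the αD chain, reached at most 13 counts and was not tested.

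Itga2b and Itgb3 together form the fibrinogen receptor of platelets, and Itga2 pairs with β1 as a platelet collagen receptor. Itga2b had 103, 18.8, 46.7 and 14.0 CPM in PBS, 40.5, 229 and 40.1 in DOX1X, and 70.6, 35.1, 13.1 and 61.6 in DOX4X. DOX1X 2 was the highest library for Itga2b, Itgb3 and Itga2 alike, and DOX4X 3 the lowest. DOX1X 2 also had the highest summed level of 12 megakaryocyte and platelet markers (Pf4, Ppbp, Gp1ba and others), 1704 CPM, where the other 10 libraries ran from 88.8 to 801 CPM.

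With a megakaryocyte score (mean log2 CPM of 11 of these markers, centred) as a term beside the groups, 64 genes of 17838 rose with it, or 0.359%, and 3 of the 32 receptors were among them. Itga2b rose by 0.92 log2 units per unit of score (SE 0.08, adjusted p = 0.000407 by edgeR), Itgb3 by 0.63 (SE 0.07, adjusted p = 0.00143) and Itga2 by 0.53 (SE 0.09, adjusted p = 0.0241). Without DOX1X 2 the slopes of Itga2b and Itgb3 were 0.87 and 0.56 and both passed, while Itga2 no longer did (slope 0.50, adjusted p = 0.311); Itga2 was also lost without PBS 1, PBS 4, DOX4X 1, DOX4X 3 or DOX4X 4, with adjusted p between 0.0557 and 0.148. Itgb5 had no call on this score, and with the score as a term its DOX4X log2 fold change was -1.01 (SE 0.13, adjusted p = 0.0311). In that fit Sdc3 had -0.83 (adjusted p = 0.0544) and Ddr2 -0.59 (adjusted p = 0.0568), and neither was called.

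**Figure D5:**
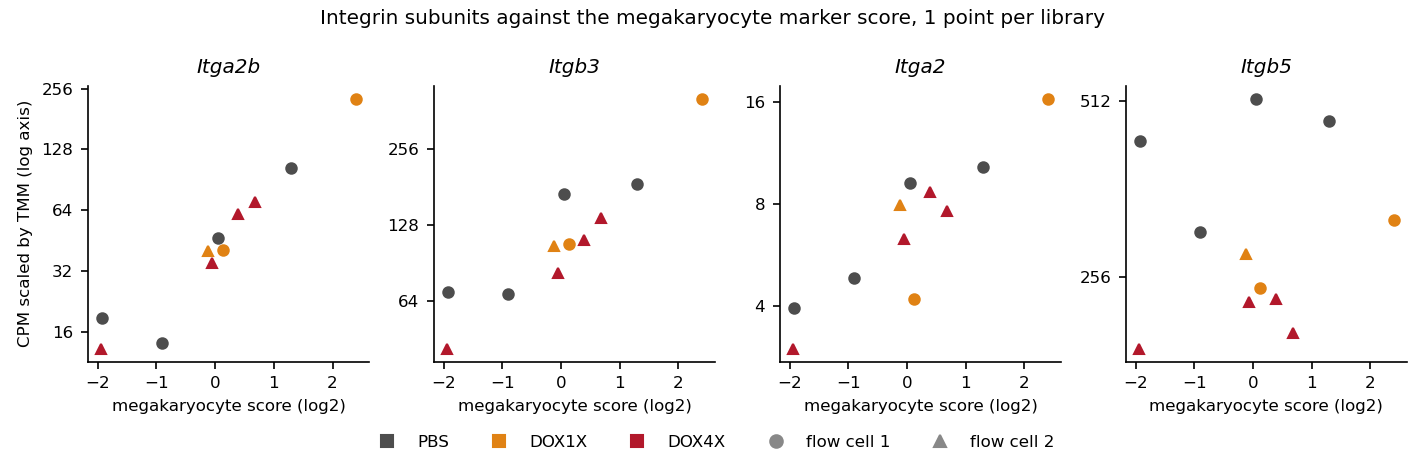
Levels of Itga2b, Itgb3, Itga2 and Itgb5 in CPM on log axes against the centred megakaryocyte marker score in log2 units, with 1 point per library, coloured by group and shaped by flow cell. Itga2b, Itgb3 and Itga2 are higher where the score is higher, with DOX1X 2 at the top right, and all DOX4X points of Itgb5 lie below all its PBS points.

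Endothelial and osteoblast markers also differed in value between the groups, though their summed levels in PBS and DOX4X overlapped. The 14 endothelial markers summed to 261 to 926 CPM in PBS, 341 to 639 in DOX1X and 859 to 1656 in DOX4X. All 14 had a fold change above 0 in DOX4X against PBS and 0 were called. At an unadjusted p under 0.05, 7 were higher, against 6% of all genes. Osteoblast markers summed to 8655 to 14697 CPM in PBS, 8670 to 12640 in DOX1X and 6983 to 9031 in DOX4X. In DOX4X against PBS, 9 of 10 tested markers were below 0 and 0 were called. At an unadjusted p under 0.05, 4 were lower, against 7.85% of all genes. Apart from the blood-cell and megakaryocyte terms above, the part of these cells in the receptor results was not tested.

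The ligands of these receptors were examined through a list of 43 genes, all tested. In DOX4X against PBS, 37 had a fold change below 0, and their median log2 fold change was -0.39. For this and the lists below, 47.8% of all genes were below 0, their median was 0.01, and 26, or 0.146%, were called lower. Ibsp, Dmp1 and Col1a1 of this list are also among the osteoblast markers above. The 1 gene of the list called by edgeR was Spp1, which encodes osteopontin, an RGD protein bound by αv integrins and by CD44. Spp1 fell by 1.58 log2 units (SE 0.21, adjusted p = 0.0374 by edgeR), with means of 7971 CPM in PBS and 2662 in DOX4X. This call did not hold in every edgeR fit. With a term for the flow cell the value was -1.63 (adjusted p = 0.277), with the blood-cell score as a term -1.83 (adjusted p = 0.0765) and with only the PBS and DOX4X libraries -1.58 (adjusted p = 0.0596). Leaving out PBS 1, 2 or 3, DOX1X 1 or 2, or DOX4X 1, 2 or 3 also ended the call, with values from -1.66 to -1.48 and adjusted p from 0.0599 to 0.143. Dmp1, another RGD protein of bone, had a log2 fold change of -2.0002 (SE 0.44, adjusted p = 0.112), Fbn1, fibrillin-1, -0.65 (SE 0.13, adjusted p = 0.104) and Col6a2, a chain of collagen VI, -0.65 (SE 0.13, adjusted p = 0.104). At an unadjusted p under 0.05, 20 of the 43 were lower and 1 higher, where 7.85% and 6% of all genes were.

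On the inner side of the membrane, 33 focal adhesion and integrin adaptor genes were tested, of which 26 had a fold change below 0, with a median of -0.15. EdgeR called 0, with 8 lower and 2 higher at an unadjusted p under 0.05, against 7.85% and 6% of all genes. Parva, the α-parvin that ties integrins to actin, had a log2 fold change of -0.40 (SE 0.09, adjusted p = 0.104), Crk, an adaptor downstream of paxillin, -0.28 (SE 0.08, adjusted p = 0.17) and Ptk2b, the kinase Pyk2, 1.12 (SE 0.27, adjusted p = 0.132). Ilk, the integrin-linked kinase gene, had means of only 1.5 CPM in PBS and 0.867 in DOX4X; 89.7% of its exon bases lie under other genes of the annotation, so its counts are uncertain.

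Genes that build or trim heparan sulfate, the sugar chain of the syndecans, or work with syndecans numbered 23, with 17 below 0 and a median of -0.17. Of these, 0 were called by edgeR and 8 were lower at an unadjusted p under 0.05, against 7.85% of all genes. Sulf2, which removes sulfate groups from heparan sulfate outside the cell, had a log2 fold change of -0.95 (SE 0.19, adjusted p = 0.0913), and the biosynthetic genes Glce, Ndst1 and Hs2st1 had -0.35, -0.30 and -0.22. Of 24 dystroglycan partners and glycosylation genes, 22 were below 0 with a median of -0.10, and edgeR called 0. At an unadjusted p under 0.05, 2 were lower, against 7.85% of all genes: Sspn (sarcospan, -0.43) and Sgcb (β-sarcoglycan, -0.20). The glycosyltransferase genes B3galnt2 and Pomgnt1 had -0.15 and -0.14.

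Other matrix receptors and cell surface proteoglycans split more evenly, with 13 of 23 below 0 and a median of -0.04. EdgeR called 0, with 5 lower and 3 higher at an unadjusted p under 0.05, against 7.85% and 6% of all genes. Tgfbr3, the TGF-β co-receptor betaglycan, had a log2 fold change of -0.43 (SE 0.11, adjusted p = 0.139), the glypicans Gpc1 and Gpc4 -0.48 and -0.31, and Cd36, the scavenger and thrombospondin receptor found on fat, endothelial and myeloid cells, 1.37 (SE 0.38, adjusted p = 0.17). Over the 146 tested genes of the 5 lists, 115 were below 0, where 47.8% of all genes were; edgeR called 1, and DESeq2 called 25 beside its 3.36% of all genes. The number of the 146 at an unadjusted p under 0.05 was 49 by edgeR, where 7.85% of all genes were lower and 6% higher. With a term for the flow cell it was 20, and the share of all genes in that fit was not worked out.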

How the data were processed

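The authors deposited raw counts of reads per gene for 11 poly(A) libraries made with SMART-Seq v4 Plus. The submitters' processing notes name STAR 2.7.9a, featureCounts 2.0.1, Trim Galore 0.6.6, SAMtools 1.17, FastQC 0.11.5 and MultiQC 1.7, and build GRCm39; the sources used here do not give the annotation, the strand setting or the handling of multimapping reads. Genes were filtered with filterByExpr, scaled with TMM and tested in 1 fit of all 11 libraries with edgeR 4.0.16 (quasi-likelihood, two-sided, R 4.3.3). Benjamini-Hochberg adjustment ran over 17838 genes, with a threshold of 0.05. The procedure was also run on simulated counts, which held no flow cell effect. Levels are TMM-scaled CPM, and levels per kb use exon lengths of GENCODE M21. Each SE follows from a fold change and its F value. The labels call the mice of a group separate biological replicates.

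The members and lists were chosen with earlier results of these data known. Values per library are given for called members, the 8 with the smallest p in DOX4X against PBS at a mean of at least 5 CPM, and 14 members whatever their values (Itga2b was added after its values were seen), and from each pathway list the called genes and up to 4 with the smallest p. Some listed genes were not analysed here. Alternatives were other scaling factors and filters, DESeq2 1.42.0, limma-voom (limma 3.58.1), a robust prior, a threshold of 0.10, only the compared groups, a replicate block, flow cell, a blood-cell score and each library left out; the megakaryocyte score and the alternatives for lists and ratios were chosen after seeing the data.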

Additional observations from a re-analysis of the deposited data

Results flagged for a closer look

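Itga6, a laminin receptor chain, stood at 83.1 CPM in PBS 3, while the other 3 PBS libraries ran from 32.4 to 40.5 CPM. The gap between PBS 3 and its nearest neighbour was 0.842 of the range of the group, above Dixon's limit for a group of 4. It was the 1 value that stood apart among 80 groups of 4 libraries examined, and chance alone gives about 1 in 20.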

How the results depend on the processing

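In all 23 alternatives, Itgb5 (-1.14 to -0.91), Sdc3 (-0.96 to -0.75) and Ddr2 (-0.65 to -0.53) kept a log2 fold change below 0 in DOX4X against PBS. The number of receptors called there, 3, was 5 with DESeq2, 0 in a fit of the compared groups alone, 0 with flow cell as a term, 0 with the blood-cell score and 1 with the megakaryocyte score as a term (Itgb5), and 0 to 3 with 1 library left out; the cause was not tested. Upper quartile factors gave 2 (Ddr2 lost, adjusted p = 0.0636). Over all genes, the 26 calls became 599 with DESeq2 and 1 with only the compared groups. They became 6 with flow cell and 2 with the blood-cell score as a term, and 0 to 80 with 1 library left out. Limma-voom called 56 genes and a threshold of 0.10 gave 64, while the receptor count stayed at 3 in both. Called genes of the 5 pathway lists, 1 in all, were 25 with DESeq2, 0 with only the compared groups, flow cell or the blood-cell score, and 0 to 6 with 1 library left out. For DOX1X against PBS and DOX4X against DOX1X, 0 receptors were called in every alternative run, while over all genes DESeq2 called 41 and 28 in place of 1 and 1, and flow cell 1 alone gave 5 for DOX1X against PBS.

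Replicate numbers did not pair the samples: over 10 same-numbered pairs the correlation of deviations ran from -0.12 to 0.35, and 2 of 11 libraries correlated best with their own number. With the replicate block, 1 receptor was called in DOX4X against PBS (Ddr2, adjusted p = 0.0436) and 10 genes in all; over all genes the block gave 6 for DOX1X against PBS and 2 for DOX4X against DOX1X.

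On the blood-cell score, 0 receptors passed beside 29 of all genes. A score from Ptprc alone gave 1 (Itgb7) beside 168 of all genes. With 1 library left out, 0 to 1 receptors passed beside 0 to 78 of all genes. On the megakaryocyte score the count of 3 was 2 to 4 with 1 library left out, beside 32 to 244 of all genes. Receptors at a few counts per library, such as Itgad, Itgae and Itgb6, are limited by depth. Of 729 fold changes of receptors under the alternatives in DOX4X against PBS, 63 changed sign, none of them of a called receptor.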
